A study of Mus musculus with 13 samples.

Results

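The genes described here build, cross-link and degrade the extracellular matrix, signal to the cells that make it, or mark those cells through their cytoskeleton. They are 37 mouse gene symbols listed by their known roles in fibroblasts and matrix, and 36 of the 37 were among the 35013 rows of the deposited count table. Ctgf was not among the rows, which list Ccn2, the current symbol of the same gene, so the values of Ccn2 are given apart from the members. All 36 passed the filter on low counts, which kept 16468 genes, so no member was set aside for a low level. The members and the gene lists set beside them were chosen with earlier results of these data known. Their counts and medians beside those of all genes are therefore descriptions and not tests.

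Nascent RNA from the kidneys of female mice was captured in 13 libraries, of which 4 were labelled Spns1 KO, 5 WT and 4 FeO. Spns1 encodes a lysosomal membrane transporter, and the study set its deletion beside iron loading. Per the methods, Spns1 KO mice carried Megalin3'Cre-Ert together with Spns1 flox/flox and Uprt flox/+. Both WT and FeO mice carried Megalin3'Cre-Ert together with Spns1 flox/+ and Uprt flox/+, which the labels name Spns1 WT. Iron was injected into the peritoneum of the FeO mice, 12 mg (of elemental iron in the methods, of iron sucrose in the labels) on each of 3 days, and their kidneys were taken 1 week later. All 3 groups thus carried the Cre transgene, at least 1 floxed Spns1 allele and 1 Uprt allele with a floxed stop, and mice of both Spns1 genotypes were given tamoxifen. The Cre is expressed from the megalin promoter, so deletion and RNA tagging were both meant for cells that use that promoter, foremost the proximal tubule. The ages of the mice are not given in the sources used here. Each group goes by its label, so Spns1 KO means the libraries labelled as such. Total counts per library ran from 31809135 to 71296474 in Spns1 KO, from 23068023 to 37362311 in WT and from 25986133 to 29981814 in FeO.

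In the kidney, interstitial fibroblasts and pericytes secrete fibrillar collagens, proteoglycans and elastic fibre proteins, whereas tubule, endothelial and glomerular cells lay down the basement membrane of type IV collagen and laminin beneath them. Collagen chains are assembled in the secretory pathway, trimmed outside the cell and cross-linked by lysyl oxidases. Transforming growth factor beta (TGF-beta) and platelet-derived growth factor (PDGF) are the best known signals that drive matrix production, and a cell that turns into a myofibroblast takes up smooth muscle actin. Whether the reads of these genes came from tagged cells or from RNA of other cells of the whole kidney was not tested.

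The stretches of DNA just upstream of 5 members are shown because each of these members passed the limits under every one of 22 refits of the counts, in Spns1 KO or in FeO, and because no annotated exon overlaps the stretch. Of the 36 members, 12 passed in this way and 5 of those had such a window. The windows are the 250 bases before the RefSeq start in GRCm38.p6, written 5′ to 3′ on the strand of the gene, and capitals mark the letters CAGAC or their reverse complement GTCTG, the short core that SMAD proteins, the transcription factors of TGF-beta signalling, are known to bind. Bgn (chrX:73483351-73483600, plus strand), Col15a1 (chr4:47207762-47208011, plus strand) and Col6a2 (chr10:76623631-76623880, minus strand) were higher in Spns1 KO. Timp1 (chrX:20869916-20870165, plus strand) was higher in FeO and Lama5 (chr2:180225860-180226109, minus strand) was lower in FeO.
Bgn: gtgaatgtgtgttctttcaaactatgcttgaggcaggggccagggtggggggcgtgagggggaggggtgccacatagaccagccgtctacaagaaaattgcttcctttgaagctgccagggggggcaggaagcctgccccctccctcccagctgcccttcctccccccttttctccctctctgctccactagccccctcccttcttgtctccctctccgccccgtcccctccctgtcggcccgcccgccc
Col15a1: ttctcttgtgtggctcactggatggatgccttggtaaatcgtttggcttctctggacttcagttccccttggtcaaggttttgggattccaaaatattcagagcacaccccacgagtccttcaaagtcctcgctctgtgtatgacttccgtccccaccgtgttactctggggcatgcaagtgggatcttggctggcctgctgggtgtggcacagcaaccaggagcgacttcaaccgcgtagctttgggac
Col6a2: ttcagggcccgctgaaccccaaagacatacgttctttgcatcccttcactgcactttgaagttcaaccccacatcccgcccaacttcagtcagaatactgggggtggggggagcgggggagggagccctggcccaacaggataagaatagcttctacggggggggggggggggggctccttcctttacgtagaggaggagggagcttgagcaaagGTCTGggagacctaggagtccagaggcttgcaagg
Timp1: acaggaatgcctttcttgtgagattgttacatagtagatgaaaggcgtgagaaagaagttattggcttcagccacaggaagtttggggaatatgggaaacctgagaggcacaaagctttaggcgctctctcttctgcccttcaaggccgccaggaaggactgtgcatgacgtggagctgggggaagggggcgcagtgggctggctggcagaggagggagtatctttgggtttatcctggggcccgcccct
Lama5: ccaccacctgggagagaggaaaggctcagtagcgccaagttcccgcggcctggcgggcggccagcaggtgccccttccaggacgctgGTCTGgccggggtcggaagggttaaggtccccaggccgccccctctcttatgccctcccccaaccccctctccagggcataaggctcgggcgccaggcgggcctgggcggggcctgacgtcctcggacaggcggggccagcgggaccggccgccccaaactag
This core stood 35 bases before the start of Col6a2 and 163 bases before that of Lama5, whereas the windows of Bgn, Col15a1 and Timp1 held no match. Windows were available for 25 members. Of their 29 windows 48.3% held the core on either strand, against 42.2% of all 32851 RefSeq windows of the same length, and 14 members had at least 1 window with it. A match is a description of the letters and not evidence of binding.

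Levels are given as CPM, the count relative to the library total as scaled by edgeR's TMM factors, and comparisons between genes as CPM per kilobase of the longest annotated transcript. A gene is called changed, as in the methods, when its Benjamini-Hochberg adjusted p was under 0.05 and its log2 fold change beyond 0.5 in either direction, here from edgeR's quasi-likelihood test in 1 fit of all 13 libraries over 16468 genes, and SE is the standard error of a log2 fold change. In WT, Timp3, an inhibitor of matrix metalloproteinases, stood far above the rest at 415 CPM per kilobase. Next came the basement membrane genes Col4a1 at 51.3, Lama5 at 43.98, Col4a2 at 37.8 and Lamb1 at 30.1. The basement membrane genes Col18a1 at 18.5 and Lamc1 at 17.6 stood beside Sparc at 16.5 and Bgn at 16.4. Lower levels were read for Col3a1 at 4.44, Dcn at 2.92, Col1a1 at 0.877, Col15a1 at 0.842 and, lowest in WT, Lum at 0.284 CPM per kilobase. Most of the summed CPM of the 36 genes in WT thus came from basement membrane genes and Timp3. Exons of Timp3 overlap Syn3 on the opposite strand, and as the strand of the reads is not given in the sources used here, reads of the pair cannot be told apart. Coordinates of genes are those of GRCm38.

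Values of the whole series that touch these results are the following. The target gene Spns1 did not separate the groups, while its count covers exons that the floxed allele keeps. In order of replicate number it read 39.04, 44.55, 36.6 and 58.95 CPM in Spns1 KO and 57.23, 61.44, 57.58, 39.25 and 62.85 CPM in WT. The paper reports loss of Spns1 RNA, and of the protein by immunostaining, in knockout proximal tubules. All 10 proximal tubule markers were detected in every library, as was every marker of 8 other cell classes examined. The summed level of the proximal tubule markers was 10648 to 11516 CPM in Spns1 KO, 3486 to 4901 CPM in WT and 1922.5 to 9375 CPM in FeO. Pericyte, mesangium and smooth muscle markers summed to 160 to 211 CPM in Spns1 KO, 143 to 176 CPM in WT and 151 to 251 CPM in FeO. Endothelium markers summed to 426 to 469, 270 to 332 and 248 to 464 CPM in the same order, and macrophage markers to 76.0 to 121, 54.2 to 69.0 and 97.2 to 178 CPM. For the proximal tubule markers, the high sum of FeO 4 turned on 1 gene, Kap, an androgen-regulated proximal tubule gene singled out after its values were seen. Kap read 582, 839, 2679 and 6728 CPM in FeO 1 to 4. Without Kap the other 9 proximal tubule markers summed to 6063 to 6795 CPM in Spns1 KO, 2693 to 3863 CPM in WT and 1340.2, 3760.1, 3480.2 and 2647 CPM in FeO 1 to 4. FeO 4 then lay inside the range of the other FeO libraries, while FeO 1 stayed lowest. In bulk RNA, more cells of a type and more RNA per cell cannot be told apart, and this holds for each level below.

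**Figure D1:**
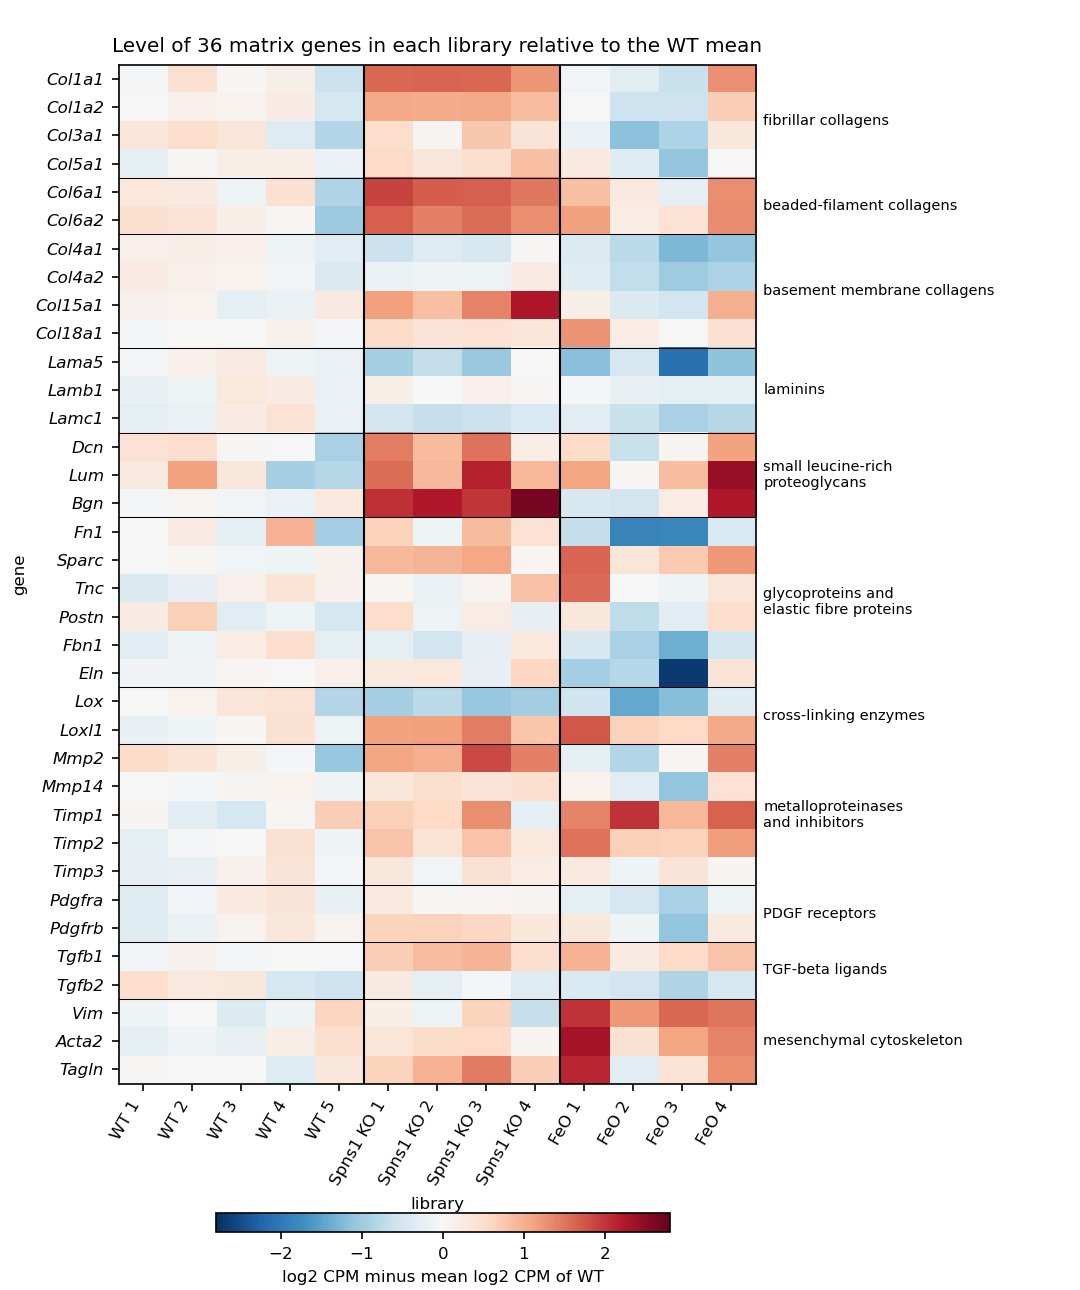
Heat map of the 36 matrix genes (rows, grouped by role) in the 13 libraries (columns), with colour giving log2 CPM minus the mean log2 CPM of the 5 WT libraries. Red rows of collagens I and VI and of Bgn fill the 4 Spns1 KO columns, red rows of Vim, Acta2 and Timp1 the FeO columns, and FeO 4 shares the red of Col1a1, Col6a1 and Bgn with Spns1 KO.

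The comparison of Spns1 KO with WT asks which transcripts differ between Spns1 flox/flox and Spns1 flox/+ mice, both carrying the Cre of the megalin domain. By the genotypes of the methods, the floxed allele of WT was thus open to deletion too. Of the 36 members 11 rose, 2 fell and 23 did not pass the limits. Over all genes tested 14.0% rose and 7.55% fell. The median log2 fold change of the members was 0.40, against -0.045 over all genes. The genes that rose were those of collagens I, VI and XV, the proteoglycans Bgn and Dcn, the collagen-binding glycoprotein Sparc, the cross-linking enzyme Loxl1, the gelatinase Mmp2 and the growth factor Tgfb1. The cross-linking enzyme Lox and the laminin chain Lamc1 fell. In 13 members every Spns1 KO library lay above every WT library and in 1 member every one lay below, where 13.1% and 9.38% of all genes did so. The calls of Bgn, Col15a1, Col1a1, Col6a1 and Col6a2 held in all 22 refits. With library totals in place of TMM factors 9 members rose and 2 fell, while over all called genes the share that rose went from 65.0% to 45.5%.

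The comparison of FeO with WT asks which transcripts differ after iron loading. Here 10 of the 36 members rose, 8 fell and 18 did not pass, while 22.4% of all genes rose and 19.7% fell. As parts of the 36 members, the risen and the fallen were thus near the shares of all genes. The members' median log2 fold change was 0.16, against -0.011 over all genes. Risen genes were the cytoskeletal genes Vim, Acta2 and Tagln, the protease inhibitors Timp1 and Timp2, Sparc, Loxl1, Tgfb1, Col6a2 and Col18a1. Fallen genes were the basement membrane genes Col4a1, Col4a2, Lama5 and Lamc1, the fibril genes Fn1 and Fbn1, and Lox and Tgfb2. All FeO libraries lay above all WT libraries in 6 members and below them in 4, against 16.9% and 16.4% of all genes. As parts of the 36 members, neither count exceeded the share of all genes. Both comparisons use the same WT libraries, so their values are set side by side and not counted as independent. The FeO calls of Acta2, Lama5, Loxl1, Sparc, Timp1, Timp2 and Vim held in all 22 refits. Without FeO 4, 9 members rose and 9 fell, with Col6a2 and Tgfb2 no longer called and Eln and Pdgfra called down. The members' median log2 fold change was then -0.20. Among all genes tested 3810 rose and 3109 fell without FeO 4, against 3691 and 3252 with it.

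**Figure D2:**
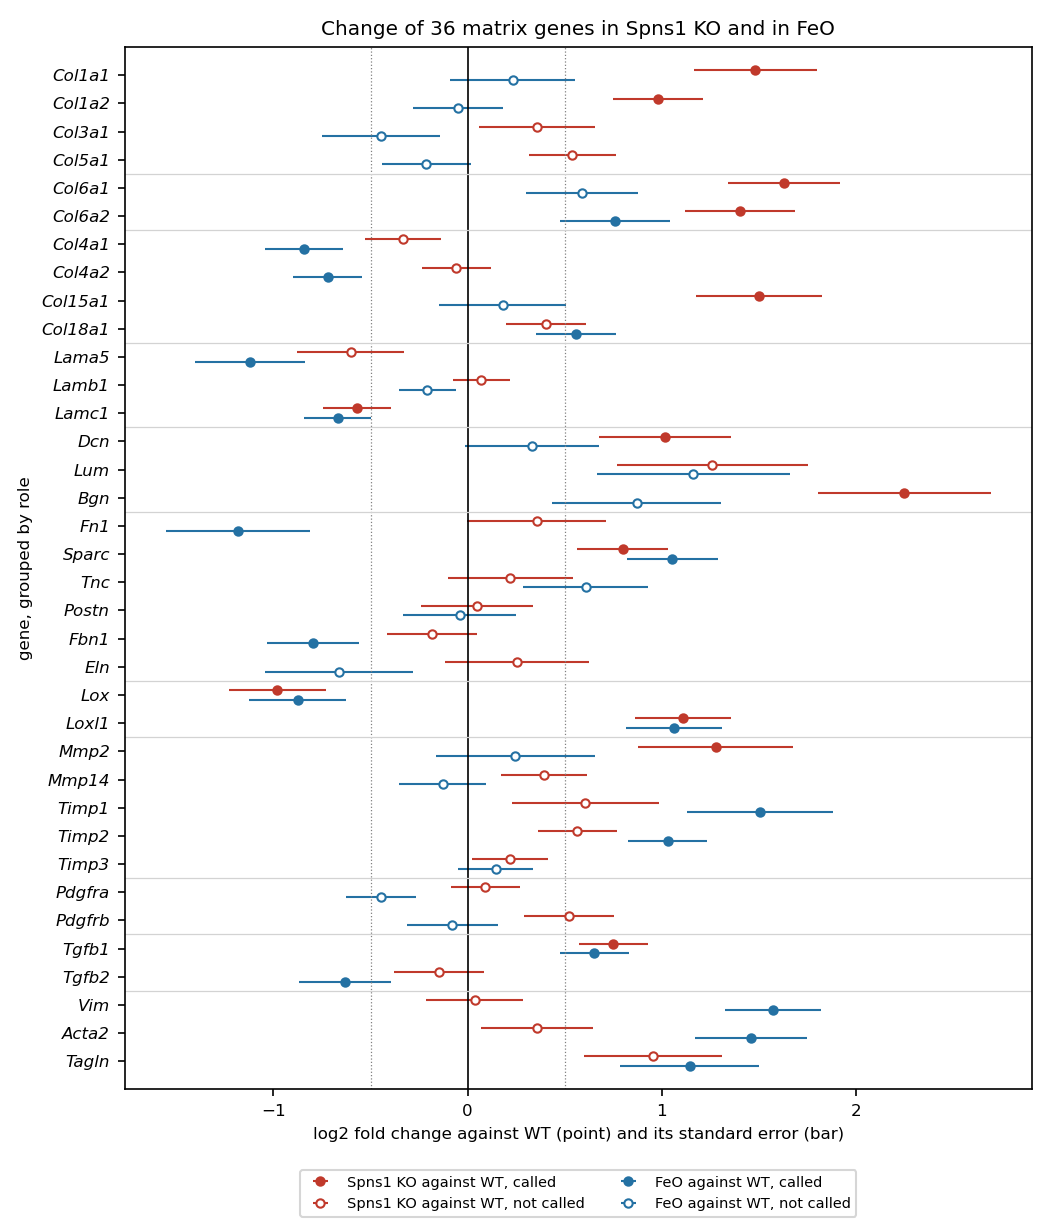
Log2 fold change against WT (points) with its standard error (bars) for the 36 matrix genes in Spns1 KO (red) and FeO (blue), where filled points are called and dotted lines mark the limit of 0.5. Col1a1, Col1a2, Col6a1 and Col15a1 are filled in red only, and Vim, Acta2 and Timp1 in blue only.

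Col1a1 and Col1a2 encode the 2 chains of collagen I, the main fibril of scar and interstitium. Col1a1 (chromosome 11 from 94936224 to 94953042) read 15.4, 15.6, 15.4 and 11.9 CPM in the Spns1 KO libraries in order of replicate number, 4.98, 6.78, 5.23, 5.65 and 3.36 CPM in the WT libraries and 4.82, 4.09, 3.31 and 12.3 CPM in the FeO libraries, and later lists keep this order. All Spns1 KO libraries lay above all WT libraries, and in FeO only FeO 4 did so. The mean was 14.6 ± 1.77 CPM in Spns1 KO and 5.2 ± 1.24 CPM in WT (SD, n = 4 and 5), a 2.8-fold rise with a log2 fold change of 1.48 (SE 0.32, adjusted p = 0.00469). In FeO the log2 fold change was 0.23 (SE 0.32, adjusted p = 0.570). Col1a2 (chromosome 6 from 4504814 to 4541544) was likewise highest in Spns1 KO. It read 37.9, 37.6, 37.9 and 33.2 CPM in Spns1 KO, 18.4, 20.2, 19.7, 21.4 and 12.97 CPM in WT and 18.1, 12.2, 12.3 and 29.3 CPM in FeO. Spns1 KO lay wholly above both other groups, and its log2 fold change against WT was 0.98 (SE 0.23, adjusted p = 0.00787), while that of FeO was -0.05 (adjusted p = 0.877).

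Col3a1, which forms thin fibrils together with collagen I, had the highest level per kilobase of the fibrillar chains in WT. Its levels were 33.04, 24.8, 39.2 and 30.01 CPM in Spns1 KO, 29.7, 32.8, 29.7, 18.2 and 13.2 CPM in WT and 20.5, 10.5, 12.8 and 29.01 CPM in FeO. The groups overlapped, and neither the log2 fold change of 0.36 (adjusted p = 0.395) in Spns1 KO nor that of -0.45 (adjusted p = 0.240) in FeO passed. Part of its reads may be shared with the overlapping gene Gm47302 on the same strand. Col5a1, which starts fibrils and sets their width, read 14.7, 12.7, 13.9 and 18.3 CPM in Spns1 KO, 8.55, 10.5, 11.5, 11.6 and 9.15 CPM in WT and 12.3, 8.01, 4.81 and 10.3 CPM in FeO. Its Spns1 KO libraries lay wholly above WT, yet the log2 fold change of 0.54 did not pass (adjusted p = 0.0916).

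Col6a1 and Col6a2 encode chains of collagen VI, a pericellular filament around fibroblasts and vessels, and lie near each other on chromosome 10. Col6a1 (chromosome 10 from 76708792 to 76726168) read 19.8, 17.2, 17 and 14.7 CPM in Spns1 KO, 6.48, 6.35, 4.85, 7.1 and 2.97 CPM in WT and 9.51, 6.39, 4.46 and 13.1 CPM in FeO. Every Spns1 KO library lay above every library of the other groups. The rise against WT was 3.09-fold, from 5.55 ± 1.66 CPM to 17.2 ± 2.07 CPM (SD, n = 5 and 4), with a log2 fold change of 1.63 (SE 0.29, adjusted p = 0.00144). Its log2 fold change of 0.59 in FeO did not pass (adjusted p = 0.106). Col6a2 (chromosome 10 from 76595762 to 76623630) read 10.4, 8.74, 9.75 and 8.12 CPM in Spns1 KO, 4.47, 4.31, 3.69, 3.36 and 1.62 CPM in WT and 7.34, 3.8, 4.34 and 8.21 CPM in FeO. It passed in both models, with log2 fold changes of 1.40 (adjusted p = 0.00330) and 0.76 (adjusted p = 0.0405), although FeO 2 and FeO 3 lay inside the WT range. The FeO call of Col6a2 was lost without Spns1 KO 2, WT 3, WT 4, WT 5, FeO 1 or FeO 4, and over the 13 refits that leave out 1 library its log2 fold change lay between 0.59 and 0.94.

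Small leucine-rich proteoglycans coat collagen fibrils and bind growth factors. Bgn, biglycan (chromosome X from 73483602 to 73495933), showed the largest fold change of all members in either model. Its levels were 179, 206, 173 and 273 CPM in Spns1 KO, 41.9, 44.2, 41.3, 38.4 and 52.5 CPM in WT and 31.9, 30.5, 50.5 and 207 CPM in FeO. FeO 1 and FeO 2 lay below the WT range, FeO 3 lay within it and FeO 4 lay inside the Spns1 KO range. The means were 208 ± 45.8 CPM in Spns1 KO and 43.7 ± 5.36 CPM in WT (SD, n = 4 and 5), a 4.76-fold rise with a log2 fold change of 2.25 (SE 0.45, adjusted p = 0.00294). In FeO the log2 fold change was 0.87 (adjusted p = 0.114) with FeO 4 and -0.19 without it. Dcn, decorin (chromosome 10 from 97479609 to 97518143), read 34.95, 24.1, 37.2 and 14.9 CPM in Spns1 KO, 17.2, 18.1, 13.2, 13.1 and 6.95 CPM in WT and 18.6, 8.44, 13.7 and 28.3 CPM in FeO. The groups overlapped through Spns1 KO 4, which lay inside the WT range. Its log2 fold change of 1.02 in Spns1 KO passed narrowly (adjusted p = 0.0425). That call was lost without Spns1 KO 1, 2 or 3 or WT 3, 4 or 5, and the log2 fold change over the 13 refits lay between 0.85 and 1.23. Lum, lumican, was the lowest member per kilobase in WT. It ranged over 1.14 to 2.71 CPM in Spns1 KO, 0.32 to 1.32 CPM in WT and 0.62 to 3.3 CPM in FeO, with log2 fold changes of 1.26 (adjusted p = 0.0733) and 1.16 (adjusted p = 0.0671) that did not pass.

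**Figure D3:**
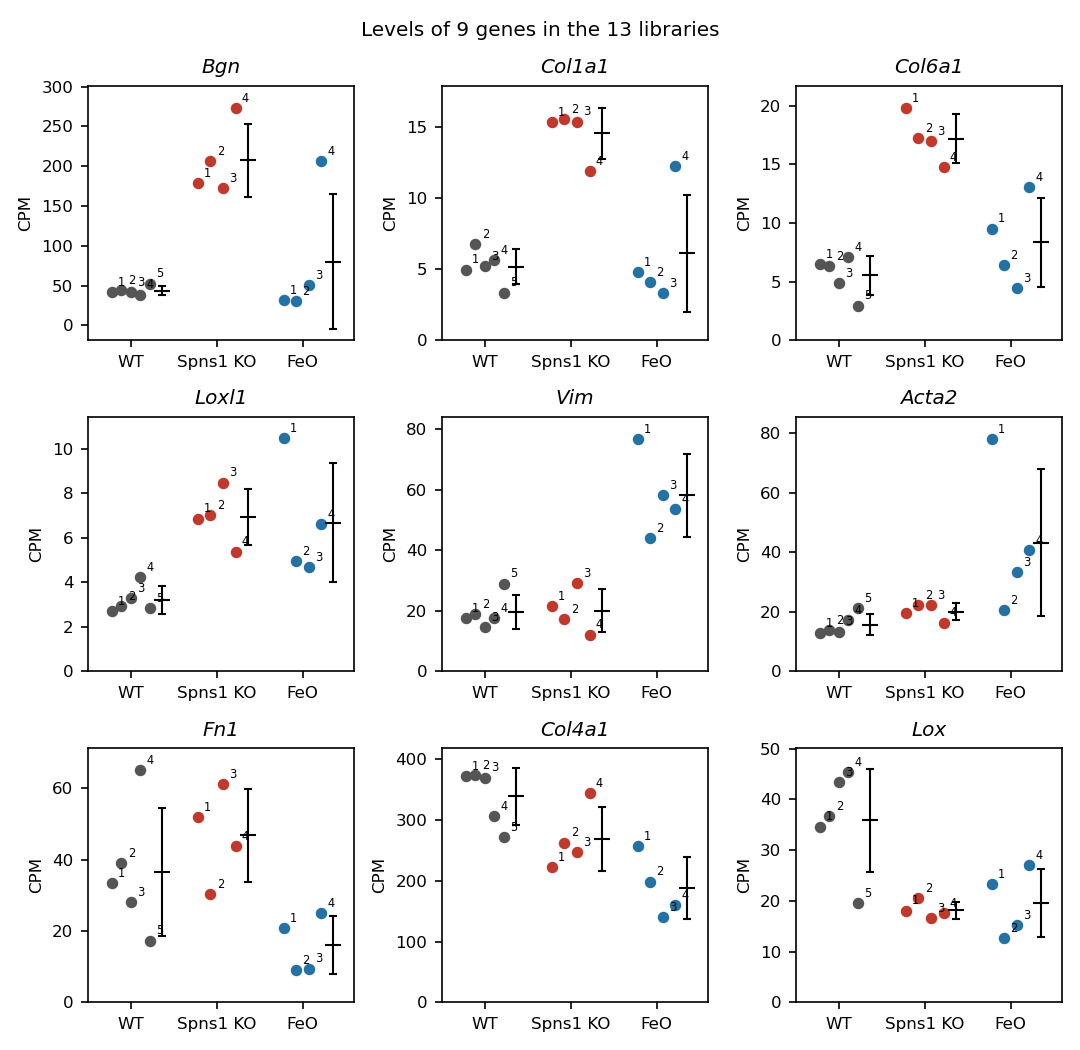
CPM of 9 matrix genes in each library (points, numbered by replicate) with the group mean and SD (black bars, n = 5 WT, 4 Spns1 KO and 4 FeO). Bgn, Col1a1 and Col6a1 are high in Spns1 KO and in FeO 4, Vim stands apart in every FeO library, and Lox is low in both models although WT 5 lies among them.

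Collagen IV is the sheet-forming collagen beneath every tubule and vessel, and Col4a1 and Col4a2 encode its widespread chains. The 2 genes lie head to head on chromosome 8 and share 22 bases (positions 11312805 to 11312826) at their starts on opposite strands. Col4a1 read 223, 263, 248 and 344 CPM in Spns1 KO, 373, 374, 369.7, 306 and 272 CPM in WT and 256, 199, 141 and 159.7 CPM in FeO. All FeO libraries lay below all WT libraries, a 1.8-fold fall with a log2 fold change of -0.84 (SE 0.20, adjusted p = 0.00387). Col4a2 fell beside it, with 212, 223, 219 and 284 CPM in Spns1 KO, 284, 266, 259, 227 and 183 CPM in WT and 190.0, 149, 121 and 132 CPM in FeO. Only FeO 1 reached the WT range, and the log2 fold change in FeO was -0.72 (SE 0.18, adjusted p = 0.00509). Spns1 KO 1 to 3 were below the WT range of Col4a1, but neither gene passed in Spns1 KO, where the log2 fold changes were -0.33 (adjusted p = 0.234) for Col4a1 and -0.06 (adjusted p = 0.835) for Col4a2.

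Col15a1 and Col18a1 encode the multiplexins, collagens with heparan or chondroitin sulphate chains that join basement membranes to the interstitium. Col15a1 (chromosome 4 from 47208161 to 47313167) read 9.6, 7.79, 11.2 and 20.7 CPM in Spns1 KO, 4.71, 4.59, 3.56, 3.78 and 5.13 CPM in WT and 4.82, 3.24, 2.96 and 8.73 CPM in FeO. Each Spns1 KO library lay above WT and Spns1 KO 4 was highest, a 2.83-fold rise with a log2 fold change of 1.50 (SE 0.32, adjusted p = 0.00489). In FeO its log2 fold change was 0.18 (adjusted p = 0.668). Col18a1 read 149, 134, 136 and 130.2 CPM in Spns1 KO, 100.5, 103, 103, 113 and 99.5 CPM in WT and 249, 120.1, 102 and 139 CPM in FeO. It passed in FeO with a log2 fold change of 0.56 (adjusted p = 0.0378), where FeO 1 was far above the other 3, but not in Spns1 KO with 0.40 (adjusted p = 0.166), although all Spns1 KO libraries lay above WT. The FeO call of Col18a1 was lost without WT 1, 2, 3 or 5 or FeO 1, with log2 fold changes between 0.23 and 0.71 over the 13 refits. The 4 basement membrane collagens thus moved apart, with 1 up in Spns1 KO, 1 up and 2 down in FeO.

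Laminin trimers form the second sheet of the basement membrane, and the chains encoded by Lama5, Lamb1 and Lamc1 combine in the widespread laminin of adult tubules and vessels. Lama5 (chromosome 2 from 180176373 to 180225859) read 260.0, 315, 243 and 502 CPM in Spns1 KO, 484, 546, 586, 452 and 437 CPM in WT and 222, 355, 117 and 228 CPM in FeO. All FeO libraries lay below WT, from 501 ± 63.4 CPM to 231 ± 97.1 CPM (SD, n = 5 and 4), a 2.17-fold fall with a log2 fold change of -1.12 (SE 0.28, adjusted p = 0.00545). In Spns1 KO 3 libraries were below the WT range and Spns1 KO 4 was within it, and the log2 fold change of -0.60 did not pass (adjusted p = 0.127). Lamc1 read 92.6, 83.8, 86.9 and 98.3 CPM in Spns1 KO, 109, 115, 155, 176 and 116 CPM in WT and 106, 85.8, 69.7 and 75.7 CPM in FeO. Both models lay wholly below WT, with log2 fold changes of -0.57 (adjusted p = 0.0289) in Spns1 KO and -0.67 (adjusted p = 0.00688) in FeO. The Spns1 KO call of Lamc1 was lost without Spns1 KO 1, 2 or 3 or WT 3 or 4, and its log2 fold change over the 13 refits lay between -0.64 and -0.44. Lamb1 ranged over 173 to 193 CPM in Spns1 KO, 149 to 212 CPM in WT and 144 to 165 CPM in FeO and passed in neither model.

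Sparc, which chaperones collagen outside the cell, read 70.8, 73.1, 80.1 and 39.3 CPM in Spns1 KO, 38.2, 39.2, 36.04, 34.8 and 40.9 CPM in WT and 117, 47.6, 63.1 and 87.1 CPM in FeO. The WT libraries lay close together, every FeO library was above them, and of Spns1 KO only replicate 4 fell inside the WT range. Sparc rose in both models, with log2 fold changes of 1.06 (SE 0.24, adjusted p = 0.00268) in FeO and 0.80 (SE 0.24, adjusted p = 0.0241) in Spns1 KO. The latter call was lost without Spns1 KO 1, 2 or 3 or WT 3, with log2 fold changes between 0.69 and 0.98 over the 13 refits. Fn1, fibronectin, the scaffold on which other fibrils assemble, read 51.96, 30.3, 61.1 and 43.8 CPM in Spns1 KO, 33.5, 38.9, 28, 65 and 17.3 CPM in WT and 20.9, 9.12, 9.43 and 24.96 CPM in FeO. FeO 2 and FeO 3 were below every WT library, while WT spread widely from WT 5 to WT 4. It fell 2.27-fold in FeO, with a log2 fold change of -1.18 (SE 0.37, adjusted p = 0.0183), and in Spns1 KO its log2 fold change was 0.36 (adjusted p = 0.490). Without WT 4 or FeO 3 the FeO call of Fn1 was lost, and the log2 fold change over the 13 refits lay between -1.45 and -0.86.

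Fbn1, fibrillin, the core of elastic microfibrils, had the longest transcript of the members. It read 11.7, 9.76, 12.1 and 17.6 CPM in Spns1 KO, 11.6, 12.97, 16.4, 19.9 and 11.9 CPM in WT and 10.4, 7.56, 5.48 and 10.01 CPM in FeO. All FeO libraries lay below all WT libraries, with a log2 fold change of -0.80 (SE 0.24, adjusted p = 0.0140), and in Spns1 KO it was -0.18 (adjusted p = 0.588). The other 3 members of this role passed in neither model. Eln, elastin, ranged over 8.85 to 15.5 CPM in Spns1 KO, 9.69 to 11.5 CPM in WT and 1.62 to 13.3 CPM in FeO, with FeO 3 lowest and FeO 4 highest. Tnc, tenascin, a matrix protein of wounds, ranged over 8.66 to 17.5, 7.41 to 12.8 and 8.99 to 29.6 CPM in the same order, with FeO 1 far above the rest. Postn, periostin, a marker of activated fibroblasts, ranged over 3.26 to 5.31, 2.74 to 6.04 and 2.34 to 5.32 CPM, with log2 fold changes of 0.05 (adjusted p = 0.917) in Spns1 KO and -0.04 (adjusted p = 0.919) in FeO.

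Lysyl oxidases oxidise lysines of collagen and elastin so that fibrils become cross-linked, and the 2 members of the family moved in opposite directions in both models. Lox read 18.1, 20.5, 16.6 and 17.6 CPM in Spns1 KO, 34.6, 36.6, 43.3, 45.3 and 19.5 CPM in WT and 23.3, 12.7, 15.2 and 27.1 CPM in FeO. WT 5 lay among the libraries of the other groups, and the other 4 WT libraries lay above all of them. Lox fell with log2 fold changes of -0.98 (SE 0.25, adjusted p = 0.0119) in Spns1 KO and -0.88 (SE 0.25, adjusted p = 0.0110) in FeO. Loxl1, which acts foremost on elastin, read 6.86, 7.01, 8.48 and 5.38 CPM in Spns1 KO, 2.72, 2.93, 3.28, 4.24 and 2.86 CPM in WT and 10.5, 4.96, 4.69 and 6.6 CPM in FeO. Both models lay wholly above WT. The rise was 2.16-fold in Spns1 KO and 2.09-fold in FeO, with log2 fold changes of 1.11 (SE 0.25, adjusted p = 0.00569) and 1.06 (SE 0.25, adjusted p = 0.00353).

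Mmp2, gelatinase A, cleaves denatured collagen and collagen IV. Its levels were low, at 2.95, 2.76, 4.91 and 3.66 CPM in Spns1 KO, 1.96, 1.79, 1.54, 1.34 and 0.66 CPM in WT and 1.15, 0.78, 1.42 and 3.64 CPM in FeO. All Spns1 KO libraries lay above WT, and of FeO only FeO 4 did so, with log2 fold changes of 1.28 (SE 0.40, adjusted p = 0.0313) in Spns1 KO and 0.25 (adjusted p = 0.639) in FeO. The Spns1 KO call was lost without Spns1 KO 1 or 3 or WT 3, 4 or 5, with log2 fold changes between 1.09 and 1.41. Mmp14, the membrane-bound activator of Mmp2, ranged over 11.9 to 13.3 CPM in Spns1 KO, 8.84 to 10.3 CPM in WT and 4.46 to 12.7 CPM in FeO. Its Spns1 KO libraries lay above WT without overlap, but the log2 fold change of 0.40 did not pass (adjusted p = 0.207).

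The TIMP genes encode the secreted inhibitors of these proteases. Timp1 was counted only 7 to 39 times per library, so its levels carry a large counting error. It read 0.82, 1.27, 0.59 and 0.97 CPM in FeO, 0.33, 0.25, 0.22, 0.32 and 0.5 CPM in WT and 0.49, 0.46, 0.77 and 0.26 CPM in Spns1 KO. All FeO libraries lay above WT, with a log2 fold change of 1.51 (SE 0.38, adjusted p = 0.00515) in FeO and 0.61 (adjusted p = 0.257) in Spns1 KO. Timp2 read 70.4, 39, 38.3 and 55.4 CPM in FeO, 20.2, 24.1, 24.4, 33.03 and 22.7 CPM in WT and 42.8, 31.8, 42.5 and 30.2 CPM in Spns1 KO. It rose 2.04-fold in FeO with no overlap and a log2 fold change of 1.03 (SE 0.20, adjusted p = 0.00128). In Spns1 KO its log2 fold change of 0.57 had an adjusted p of 0.0538. Timp3, the most abundant member, read 2422, 1850.5, 2608 and 2239.9 CPM in Spns1 KO, 1654, 1676, 2111, 2473 and 1890.0 CPM in WT and 2349, 1781, 2493 and 2048 CPM in FeO. The groups overlapped and its log2 fold changes were 0.22 (adjusted p = 0.430) and 0.15 (adjusted p = 0.558).

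Pdgfra and Pdgfrb encode the receptors that mark interstitial fibroblasts and pericytes, and neither passed in either model. Pdgfra read 45.6, 38.4, 39.2 and 39.6 CPM in Spns1 KO, 29.5, 35.6, 45.3, 48.3 and 32.3 CPM in WT and 31.2, 26.9, 20.1 and 33.9 CPM in FeO. Spns1 KO lay inside the WT range and FeO 2 and FeO 3 below it, with log2 fold changes of 0.09 (adjusted p = 0.730) and -0.45 (adjusted p = 0.0538). Pdgfrb ranged over 28.3 to 35.5 CPM in Spns1 KO, 17.9 to 28.5 CPM in WT and 10.6 to 28.2 CPM in FeO, with log2 fold changes of 0.53 (adjusted p = 0.111) and -0.08 (adjusted p = 0.798). A p that misses the limit does not show that the levels were equal, and the standard errors of 0.18 and 0.23 in Spns1 KO give the precision.

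Tgfb1 and Tgfb2 both encode ligands of the pathway. Tgfb1 (chromosome 7 from 25687002 to 25705077) read 8.47, 9.55, 10.2 and 7.22 CPM in Spns1 KO, 4.98, 5.73, 5.07, 5.23 and 5.25 CPM in WT and 10.2, 6.16, 7.61 and 9.07 CPM in FeO. WT was tight, and both models lay wholly above it. Its log2 fold change was 0.75 (SE 0.18, adjusted p = 0.00785) in Spns1 KO and 0.65 (SE 0.18, adjusted p = 0.00858) in FeO. Tgfb2 read 10.6, 7.52, 8.52 and 6.94 CPM in Spns1 KO, 12.3, 10.8, 11.1, 6.29 and 5.98 CPM in WT and 6.62, 6.1, 4.93 and 6.33 CPM in FeO. WT split into 3 libraries near the top and 2 among the FeO levels, and Tgfb2 fell in FeO with a log2 fold change of -0.63 (SE 0.24, adjusted p = 0.0388). That call was lost without WT 1, 2 or 3 or any FeO library, with log2 fold changes between -0.74 and -0.51. In Spns1 KO its log2 fold change was -0.15 (adjusted p = 0.669).

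Ccn2, the gene that the listed symbol Ctgf used to name, encodes connective tissue growth factor, a classic target of TGF-beta. It read 119, 80.2, 127 and 137 CPM in Spns1 KO, 113, 119, 127, 88.9 and 106 CPM in WT and 26, 35.98, 23.5 and 103 CPM in FeO. Spns1 KO and WT overlapped, whereas FeO 1, 2 and 3 lay far below WT and FeO 4 inside its range. The log2 fold change was 0.06 (adjusted p = 0.909) in Spns1 KO and -1.24 (adjusted p = 0.0116) in FeO.

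Vim encodes vimentin, the intermediate filament of mesenchymal cells and of injured tubule cells, and Acta2 and Tagln encode smooth muscle actin and its partner transgelin. Vim (chromosome 2 from 13573927 to 13582826) read 76.9, 44.1, 58.3 and 53.7 CPM in FeO, 17.6, 19.01, 14.6, 17.6 and 29.1 CPM in WT and 21.7, 17.3, 29.1 and 12.2 CPM in Spns1 KO. Every FeO library lay above every library of the other groups. The mean rose 2.98-fold, from 19.6 ± 5.54 CPM in WT to 58.2 ± 13.8 CPM in FeO (SD, n = 5 and 4), with a log2 fold change of 1.57 (SE 0.25, adjusted p = 0.000508). In Spns1 KO it was 0.04 (adjusted p = 0.928). Acta2 (chromosome 19 from 34241090 to 34255590) read 78.04, 20.7, 33.4 and 40.7 CPM in FeO, 12.9, 13.9, 13.4, 17.2 and 21.2 CPM in WT and 19.6, 22.2, 22.3 and 16.4 CPM in Spns1 KO. FeO 1 was highest and FeO 2 lay inside the WT range, and the log2 fold change in FeO was 1.46 (SE 0.29, adjusted p = 0.00132), against 0.36 (adjusted p = 0.381) in Spns1 KO. Tagln read 68.95, 12.9, 20.6 and 38.8 CPM in FeO, 16.3, 15.96, 15.7, 12.4 and 19.7 CPM in WT and 24.4, 30.8, 43.5 and 25.3 CPM in Spns1 KO. Its FeO libraries spread from FeO 2 inside the WT range to FeO 1 far above it, with a log2 fold change of 1.14 (SE 0.36, adjusted p = 0.0173). The Spns1 KO libraries lay wholly above WT, with a log2 fold change of 0.96 that did not pass (adjusted p = 0.0625). The FeO call of Tagln was lost without FeO 1, and its log2 fold change over the 13 refits lay between 0.60 and 1.44. Tagln shares exon positions with Pcsk7 on the opposite strand, so its reads are uncertain where strand was not used.

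Markers of other cell types were counted beside the cytoskeletal genes. Over all genes tested 22.4% rose and 19.7% fell in FeO, and 14.0% rose and 7.55% fell in Spns1 KO. Of 8 macrophage markers 7 rose in FeO and 1 in Spns1 KO, and of 6 podocyte markers 4 rose in FeO and 2 in Spns1 KO. Of 6 adipocyte markers 4 and of 5 red cell markers 4 also rose in FeO. Macrophages and podocytes are both known to make vimentin. In FeO 1 to 4 the macrophage markers summed to 148, 97.2, 159.5 and 178 CPM. The podocyte markers summed to 687, 380, 294 and 538 CPM in the same order, and FeO 3 lay inside their WT range of 171 to 305 CPM. The macrophage sum was highest in FeO 4, whereas the podocyte sum, Vim and Acta2 were highest in FeO 1. At the low end, the macrophage sum, Vim and Acta2 were lowest in FeO 2, and the podocyte sum was lowest in FeO 3. Of 8 pericyte, mesangium and smooth muscle markers 2 rose and 1 fell in FeO, and 1 rose in Spns1 KO. Of 10 proximal tubule markers 8 rose in Spns1 KO, and 2 rose and 1 fell in FeO. Of 9 endothelium markers 5 rose in Spns1 KO, and 3 rose and 1 fell in FeO. The part of these cell types in the matrix results was not tested.

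The direct comparison of Spns1 KO with FeO tests whether the 2 models differ for a gene. Of the 36 members 7 were higher in Spns1 KO and 2 lower, and 27 did not pass, while 6.76% of all genes were higher and 8.1% lower. The members' median log2 fold change was 0.52, against 0.028 over all genes. Higher in Spns1 KO were Fn1 at a log2 fold change of 1.54 (SE 0.39, adjusted p = 0.0177), Col15a1 at 1.32 (SE 0.35, adjusted p = 0.0211), Col1a1 at 1.25 (SE 0.34, adjusted p = 0.0245), Col6a1 at 1.04 (SE 0.30, adjusted p = 0.0331) and Col1a2 at 1.03 (SE 0.25, adjusted p = 0.0141). Col5a1 at 0.75 (SE 0.24, adjusted p = 0.0455) and Col4a2 at 0.66 (SE 0.19, adjusted p = 0.0287) passed as well. Lower in Spns1 KO were Vim at -1.54 (SE 0.27, adjusted p = 0.00396) and Acta2 at -1.11 (SE 0.31, adjusted p = 0.0270). In 9 members all Spns1 KO libraries lay above all FeO libraries and in 1, Vim, all lay below, where 8.25% and 9.1% of all genes did so.

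Other calls of the separate comparisons were not shown to differ between the models. Bgn was 1.38 higher in Spns1 KO on the log2 scale with a standard error of 0.47 (adjusted p = 0.0578), and Dcn 0.69 with 0.36 (adjusted p = 0.202). Timp1 differed by -0.90 (adjusted p = 0.115), Timp2 by -0.46 (adjusted p = 0.143) and Tagln by -0.19 (adjusted p = 0.756). For Loxl1 the difference was 0.05 with a standard error of 0.26, for Tgfb1 0.10 with 0.19 and for Lox -0.10 with 0.26.

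FeO 4 bore on this comparison. Of the 11 members that rose in Spns1 KO, FeO 4 lay above all WT libraries in 11 and inside the Spns1 KO range in 8. Over all 36 members these counts were 20 and 16, and they were not made over all genes tested. Without FeO 4, 12 members were higher in Spns1 KO than in FeO and 2 were lower, and the added ones included Bgn with a log2 fold change of 2.46 (adjusted p = 6.61e-05). Col3a1, Eln, Mmp2, Mmp14 and Pdgfra also passed then, while Col4a2 no longer did. Leaving out FeO 4 also raised the counts over all genes, from 1113 to 1364 higher and from 1334 to 1588 lower. The count of higher members was 1 without FeO 3, 3 without Spns1 KO 2, 4 without Spns1 KO 1, Spns1 KO 4 or FeO 1, and 5 to 8 without any single library other than these and FeO 4. The count of lower members was 1 without Spns1 KO 1, 2 or 4 or FeO 1. Over the 22 refits Vim passed each time, with adjusted p from 3.48e-06 to 0.0248 by the tools of those refits.

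**Figure D4:**
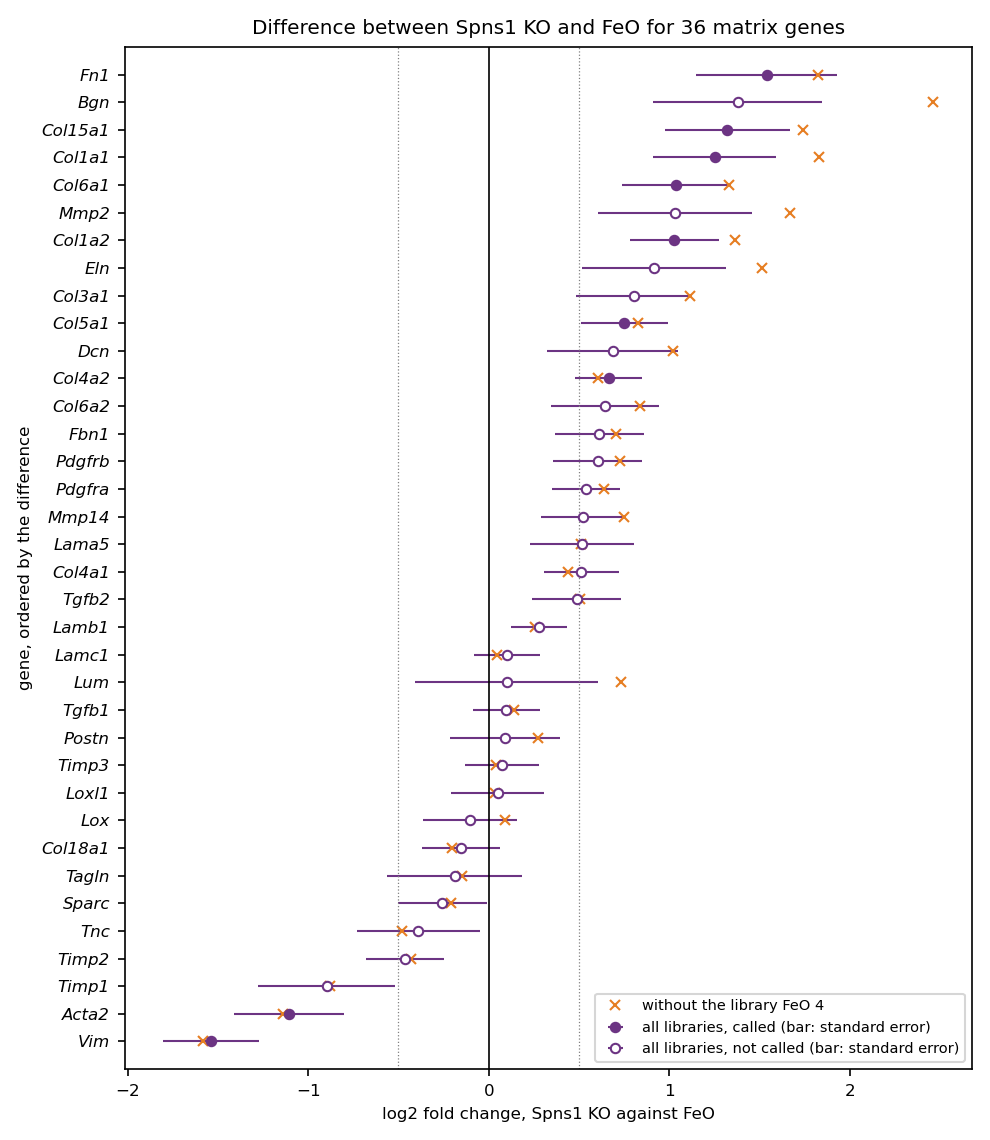
Log2 fold change of Spns1 KO against FeO (points) with its standard error (bars) for the 36 matrix genes in order of size, with filled points called and crosses giving the value without FeO 4. Fn1, Bgn, Col15a1 and Col1a1 lie furthest to the right and Vim and Acta2 to the left, and the cross of Bgn lies furthest from its point.

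Transcript length moved with the calls in both models. The longest annotated transcripts of the members had a median of 5014 bases, against 3297 over all tested genes with a length. The members that rose in FeO had a median of 2749.5 bases, those that fell 7118.5 and those that did not pass 5197.5. Over all genes the same medians were 2085, 4973 and 3410.5 bases. In Spns1 KO the members that rose had a median of 4100 bases, the 2 that fell 6181.5 and those that did not pass 5423. Over all genes these medians in Spns1 KO were 1945, 5036.5 and 3415 bases. When the dependence of counts on transcript length and base composition was taken out library by library, 10 members rose and 1 fell in Spns1 KO, and 9 rose and 2 fell in FeO. Between Spns1 KO and FeO 4 members were then higher and 2 lower. Over all genes tested, the step took the risen from 2307 to 1763 and the fallen from 1243 to 793 in Spns1 KO. In FeO the risen went from 3691 to 3153 and the fallen from 3252 to 2219. Between Spns1 KO and FeO the higher genes went from 1113 to 1053 and the lower ones from 1334 to 1573.

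Most FeO calls of fallen members were lost with this step. Lama5 at -0.53 (adjusted p = 0.0406) and Lox at -0.62 (adjusted p = 0.0469) remained called in FeO. Col4a1 went to -0.44, Col4a2 to -0.30, Fbn1 to -0.14, Lamc1 to -0.17, Fn1 to -0.63 and Tgfb2 to -0.34, and none of these passed the limits. Among the risen members Vim went to 1.52, Acta2 to 1.17, Timp1 to 0.95 and Timp2 to 1.02, all still called, while Tagln at 0.69 and Tgfb1 at 0.47 were not, and Tnc at 1.06 was gained. In Spns1 KO the log2 fold changes of Col1a1, Col6a1 and Col15a1 were 1.60, 1.61 and 1.56 after the step, and Bgn, Col1a2, Col6a2, Dcn, Loxl1, Tgfb1 and Lox also kept their calls. The calls of Lamc1 at -0.30 (adjusted p = 0.115), Sparc at 0.61 (adjusted p = 0.0673) and Mmp2 at 1.20 (adjusted p = 0.0566) were lost in Spns1 KO, and Col5a1 at 0.74 (adjusted p = 0.0114) was gained. Why transcript length moved with the calls was not tested.

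**Figure D5:**
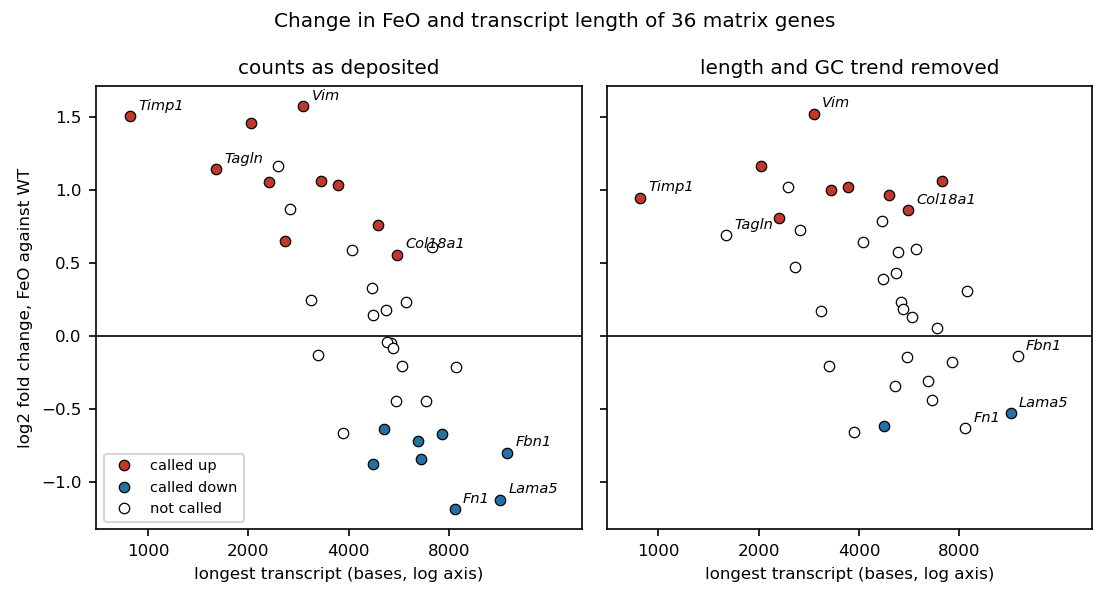
Log2 fold change of FeO against WT for the 36 matrix genes against the length of the longest transcript (log axis), from the counts as deposited (left) and after the dependence on length and base composition was taken out (right). On the left the called-down genes lie at 4741 bases or more, and on the right only Lama5 and Lox remain called down.

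Genes of the surrounding pathways were taken from lists of the same kind. The counts of every such list are to be read against the shares of all genes tested. For FeO 22.4% of those genes were called higher than WT and 19.7% lower. The matching shares for Spns1 KO were 14.0% and 7.55%. Whether any list departed from these shares was not tested. Of 20 collagen synthesis and cross-linking enzymes 7 rose in Spns1 KO and none fell, and in FeO 6 rose and 3 fell. Pcolce, which speeds the trimming of procollagen, read 34.4, 36.03, 33.2 and 25.4 CPM in Spns1 KO, 10.1, 9.09, 9.29, 11.4 and 11.2 CPM in WT and 28.3, 12.3, 14.4 and 42.2 CPM in FeO, with log2 fold changes of 1.66 (adjusted p = 0.00118) and 1.25 (adjusted p = 0.00287). Serpinh1, the collagen chaperone, rose by 0.92 in Spns1 KO and 1.02 in FeO on the log2 scale, and Crtap, a part of the prolyl 3-hydroxylase complex, by 0.83 and 1.49. The longest transcripts of Pcolce, Serpinh1 and Crtap have 2573, 2274 and 1674 bases. The summed level of the 20 collagen enzymes was 844 to 1041.5 CPM in Spns1 KO, 625 to 688.5 CPM in WT and 825 to 1234.4 CPM in FeO, so both models lay wholly above WT.

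Of 39 other collagens, laminins and matrix proteins tested (40 listed) 13 rose and 3 fell in Spns1 KO, and 5 rose and 6 fell in FeO. The elastic fibre proteins Fbln5, Efemp1 and Efemp2 rose in both, with log2 fold changes in Spns1 KO of 1.48, 0.74 and 1.41, and in FeO of 0.74, 1.05 and 1.06. Col4a3 and Col4a4, the collagen IV chains of the glomerular and some tubular basement membranes, fell in both, with log2 fold changes in Spns1 KO of -0.76 and -0.73, and in FeO of -0.83 and -0.73. Their longest transcripts have 8554 and 10108 bases.

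Of 28 genes of TGF-beta and PDGF signalling 2 rose and 5 fell in Spns1 KO, and 2 rose and 6 fell in FeO. The receptor Tgfbr1 read 137, 146, 134 and 163 CPM in Spns1 KO, 215, 221, 333, 296 and 182 CPM in WT and 136, 96, 116 and 113 CPM in FeO, so both models lay wholly below WT while the ligand Tgfb1 lay above it. Its log2 fold changes were -0.78 (adjusted p = 0.00783) and -1.12 (adjusted p = 0.000618). The longest transcript of Tgfbr1 has 5756 bases and that of Tgfb1 2573 bases. With the length and base composition trend removed, Tgfb1 was not called in FeO, at a log2 fold change of 0.47. The signal carrier Smad3 (5090 bases) had log2 fold changes of -0.55 (adjusted p = 0.0176) and -0.70 (adjusted p = 0.00233). The SMAD repressor Skil (6717 bases) had log2 fold changes of -0.60 (adjusted p = 0.0240) and -1.31 (adjusted p = 0.000393). Eng, a TGF-beta coreceptor of endothelium that is also among the endothelium markers, rose by 0.95 in Spns1 KO and 0.54 in FeO.

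Of 19 matrix proteases and inhibitors tested (23 listed) 1 rose in Spns1 KO and none fell, and 4 rose and 4 fell in FeO, with none called in both. Of 19 integrins and matrix receptors tested (20 listed) 1 rose and 1 fell in Spns1 KO, and 5 rose and 2 fell in FeO. Ilk, the integrin-linked kinase, rose in both, by 0.54 in Spns1 KO and 0.86 in FeO.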

How the data were processed

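The kidneys' 4-thiouracil-tagged RNA, labelled over 4 hours by uracil phosphoribosyltransferase in Cre-expressing cells, was captured, poly-A selected and sequenced in pairs of 100 bases. The deposited table holds estimated counts per gene, which the authors made with kallisto 0.44.0 (bcl2fastq 2.19, GRCm38) per the submitters' notes. The methods instead describe STAR and HTSeq, so the counter is uncertain. All values were whole numbers. Whether libraries came from separate mice is not stated per sample, and p-values measure the spread between these libraries.

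Genes were filtered with filterByExpr and fitted with edgeR 4.0.16 (R 4.3.3) by the quasi-likelihood test, with TMM scaling, 13 libraries and 1 coefficient per group. The limits were an adjusted p of 0.05 and a log2 fold change of 0.5, the study's own, although the study used DESeq2. The script was tested on simulated counts. Values are given per library for members called in at least 1 comparison and for the highest member per length in each role, and by range for the others. From each pathway list, genes called in both models are named up to a set number per direction, those with the largest mean changes. The named genes may therefore not be all that were called in both models. Of 16468 genes tested 98.3% had a transcript length (GENCODE M21). Windows are from RefSeq, and 11 members had none. Alternatives were DESeq2's size factors, DESeq2 1.42.0, limma-voom (limma 3.58.1), no count filter, a fit of the 2 groups compared, a length and GC trend (spline with 5 degrees of freedom), a replicate block, glmTreat, library totals, and each library left out. Counting intervals are not given, since replicate spread sets the errors. The members and gene lists were chosen with earlier results of these data known.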

Additional observations from a re-analysis of the deposited data

Results flagged for a closer look

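In 8 of 108 sets of a member in a group, the highest or lowest library lay beyond Dixon's critical value, where chance would give about 5.4. In Spns1 KO, replicate 4 stood apart in Col1a1 (11.9 CPM, others 15.4 to 15.6), Col1a2 (33.2 CPM, others 37.6 to 37.9) and Col4a2 (284 CPM, others 212 to 223), and replicate 1 in Pdgfra (45.6 CPM, others 38.4 to 39.6). In FeO, replicate 4 stood apart in Col1a1 (12.3 CPM, others 3.31 to 4.82) and Bgn (207 CPM, others 30.5 to 50.5), and replicate 1 in Tnc (29.6 CPM, others 8.99 to 12.4). In WT, replicate 4 stood apart in Col18a1 (113 CPM, others 99.5 to 103).

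The log2 fold change against WT differed between Spns1 KO and FeO, by edgeR's test of the difference itself, in 9 members. The difference, Spns1 KO minus FeO, was 1.25 for Col1a1, 1.03 for Col1a2, 0.75 for Col5a1, 1.04 for Col6a1, 0.66 for Col4a2, 1.32 for Col15a1 and 1.54 for Fn1, and it was -1.54 for Vim and -1.11 for Acta2. Of these 9, the calls of Col1a2 and Vim held with each of the 13 libraries left out in turn.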

How the results depend on the processing

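Of the 40 called differences of members, each refitted 22 times, 734 of 880 refits kept the call, 146 lost it and 0 reversed it. Members that fell in Spns1 KO numbered 1 without the count filter, with the trend removed or with the replicate block, and 0 by edgeR's glmTreat (1 at an unadjusted p under 0.05, 2 by DESeq2 and by limma-voom), which kept 5 that rose. In FeO, 2 fell with the trend removed, and by glmTreat 1 fell and 6 rose. Between Spns1 KO and FeO, 2 members were higher and 1 lower in a fit of these groups alone, 4 were higher with the trend removed or with library totals, 0 were higher and 1 lower by glmTreat (6 higher at an unadjusted p under 0.05, 9 by DESeq2 and 10 by limma-voom), and 1 was lower with the block. With 1 library left out, 8 to 14 members rose and 1 to 3 fell in Spns1 KO, 8 to 12 rose and 6 to 9 fell in FeO, and 1 to 12 were higher and 1 to 2 lower in Spns1 KO than in FeO. Replicate numbers were taken only as names of samples in the main fit. Of 12 same-numbered pairs 4 correlated above 0.1 (range -0.296 to 0.256). Differently numbered pairs were not set beside them, so whether the numbers mark shared handling was not tested. With the replicate block 8 members rose and 1 fell in Spns1 KO, 7 rose and 8 fell in FeO, and 7 were higher in Spns1 KO than in FeO. Library totals moved the median log2 fold change of all genes in Spns1 KO from -0.045 to -0.177 and that of the members to 0.27, and the share of higher among all called genes from 65.0% to 45.5% (Spns1 KO against FeO from 45.5% to 33.9%). Over all genes, 2307 rose and 1243 fell in Spns1 KO, with 793 falling both without the count filter and with the trend removed, 2086 falling with library totals, 833 rising and 96 falling by glmTreat, and 1531 to 3003 rising and 504 to 2677 falling with 1 library left out, lowest without Spns1 KO 3 and highest without Spns1 KO 4. In FeO 3691 rose and 3252 fell, against 1855 and 1264 by glmTreat. Between Spns1 KO and FeO 1113 were higher and 1334 lower, against 441 and 599 in a fit of these groups alone and 154 and 189 by glmTreat, and 545 to 1457 were higher and 636 to 1630 lower with 1 library left out. The causes were not tested.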

Other observations

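Markers of other cells that lie near matrix were also counted. Their counts, too, are to be read against the all-gene shares given above. Of 5 red cell markers 5 rose in Spns1 KO and 4 in FeO, with summed levels of 51.8 to 175 CPM in Spns1 KO, 9.40 to 36.5 CPM in WT and 26.3 to 238 CPM in FeO. Of 6 adipocyte markers 0 were called in Spns1 KO and 4 rose in FeO, and their sums of 32.7 to 141 CPM, 39.3 to 135 CPM and 74.1 to 268 CPM in the same order overlapped. Of 6 lymphocyte markers 2 rose in each model, and of 8 markers of the loop of Henle and distal nephron 2 rose and 1 fell in Spns1 KO and 3 rose in FeO. The part of these cells in the matrix results was not tested.

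Within FeO the libraries ranked the members differently. FeO 1 was the highest FeO library in 17 of 36 members and FeO 4 in 16, while FeO 3 was lowest in 20 and FeO 2 in 16. The same ranks were not counted over all genes tested, so they are not shown to be particular to the members.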
